A study of Mus musculus with 6 samples.

Results

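The calcineurin, NFAT and CaMKII genes of hypertrophy signalling were followed in the left ventricle of pressure-overloaded mice. They are 10 genes picked by name: the calcineurin subunits Ppp3ca, Ppp3cb and Ppp3r1, the transcription factors Nfatc1, Nfatc2, Nfatc3 and Nfatc4, the calcineurin inhibitor Rcan1, and the kinases Camk2d and Camk2g. All 10 were found among the 54929 rows of the deposited count table, and all 10 were among the 14807 genes tested. Wild-type C57BL/6 mice had undergone transverse aortic constriction (TAC), an operation that narrows the aorta so that the ventricle pumps against a high pressure. One group of 3 libraries came from operated mice given an antibody to PD-1, a surface protein that restrains T cells, and the other group of 3 from operated mice given an anti-IgG control antibody. In both groups the dose was 10 mg/kg, given into the peritoneum every 3 days from day 14 after surgery, and the time label is 5 weeks. Operated mice make up both groups, so the comparison addresses the antibody in the overloaded heart and not the effect of TAC. The labels give neither age nor whether each library is 1 animal, so that p-values rest on the spread between samples that may differ only technically.

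Calcineurin is a phosphatase made of a catalytic A subunit and a calcium-binding B subunit, and calmodulin switches it on when calcium rises. It strips phosphates from NFAT proteins in the cytoplasm, which then enter the nucleus and act on genes of growth, while kinases such as GSK3β and the DYRKs send them back. CaMKII, another calmodulin-activated enzyme, phosphorylates channels of calcium handling and class IIa histone deacetylases. In mouse hearts both branches are known for their part in hypertrophy under pressure overload, and both are regulated largely through protein modification, which mRNA levels do not measure.

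Summed counts were 18664362 to 21093163 per library under anti-PD-1 and 18063344 to 19708578 under anti-IgG. Mitochondrially encoded transcripts took 28.9% to 35.6% of the counts under anti-PD-1 and 29.9% to 39.3% under anti-IgG. Of the markers of ventricle and atrium, ventricular Myl2 had 535 to 1767 CPM (reads relative to the summed counts of the library, after TMM scaling, as all CPM below) under anti-PD-1 and 2974 to 5323 CPM under anti-IgG, while atrial Sln was at 0 in all 6 libraries. Of the other atrial markers, Myl4 had 9, 16 and 17 reads under anti-PD-1 and 16, 39 and 44 reads under anti-IgG. Myl7 had 0 or 2 reads in each library. Across all tested genes 3118 of 14807 (21.1%) changed by edgeR's quasi-likelihood test with Benjamini-Hochberg adjustment over all tested genes, the threshold being an adjusted p of 0.05. Of these, 1525 rose (10.3% of tested genes) and 1593 fell (10.8%), so that 48.9% of the changed genes were higher under anti-PD-1. With upper quartile scaling the share was 36.8%, and the median log2 fold change over all tested genes was -0.12, against -0.03 with the TMM scaling used here.

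Of the 10 genes, Nfatc3 rose under anti-PD-1 and the other 9 did not pass the test. That is 1 of 10 risen, beside 10.3% of all tested genes, and 0 of 10 fallen, beside 10.8%. At an unadjusted edgeR p under 0.05 the counts were 3 higher and 0 lower, beside 17.9% and 18.9% of all tested genes. DESeq2 called 3 higher and 0 lower, beside 13.0% and 12.4%. With limma-voom 2 were higher and 0 lower, beside 9.99% and 9.95%. No overlap between the groups was seen in 3 of the 10 genes, namely Ppp3cb, Ppp3r1 and Nfatc3, all higher under anti-PD-1. Among all tested genes 20.2% were without overlap and higher, and 20.8% without overlap and lower. The median log2 fold change was 0.31 over the 10 genes, 9 of which lay above 0, and -0.03 over all tested genes. With upper quartile scaling 6 of the 10 lay above 0 and their median was 0.22.

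**Figure D1:**
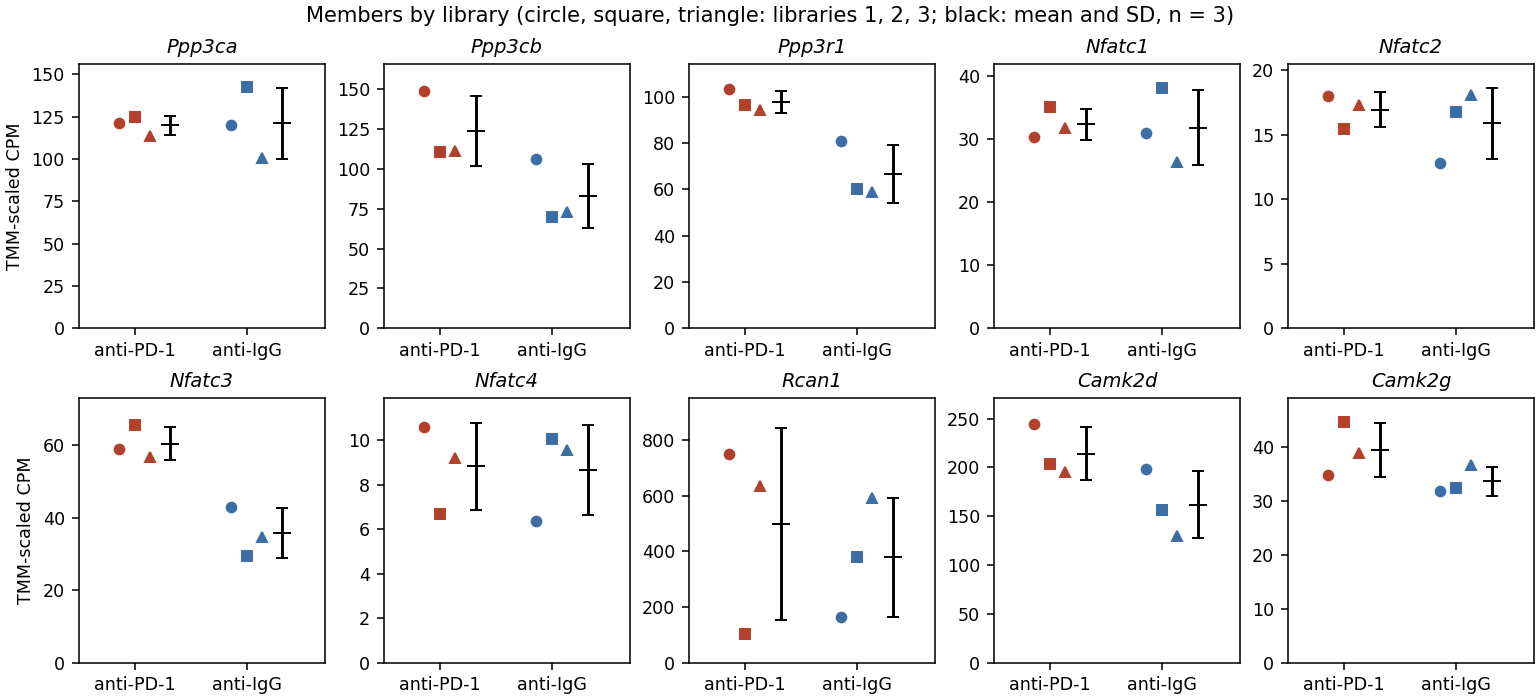
TMM-scaled CPM (vertical axis, each panel from 0) of the 10 genes in 3 anti-PD-1 libraries (red) and 3 anti-IgG libraries (blue). Circles, squares and triangles are libraries 1, 2 and 3, and black bars give the mean and SD. Nfatc3 lies between 56.7 and 65.6 CPM under anti-PD-1 and between 29.5 and 43.0 CPM under anti-IgG, while Rcan1 spans 104 to 752 CPM under anti-PD-1 and 165 to 592 CPM under anti-IgG.

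To compare abundance between genes, TMM-scaled CPM were divided by the authors' gene length in kb. On this scale Rcan1 was the most abundant of the 10, at 161 ± 112 CPM per kb under anti-PD-1 and 123 ± 69.3 under anti-IgG (SD, n = 3 each, as for all levels below). The B subunit Ppp3r1 came next, at 30.3 ± 1.47 CPM per kb under anti-PD-1 and 20.7 ± 3.85 under anti-IgG. The catalytic subunits Ppp3cb and Ppp3ca had 14.0 ± 2.48 and 12.0 ± 0.577 CPM per kb under anti-PD-1, against 9.40 ± 2.29 and 12.1 ± 2.09 under anti-IgG. On this scale both lay below the B subunit in either group.

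Camk2d had 9.52 ± 1.19 CPM per kb under anti-PD-1 and 7.20 ± 1.54 under anti-IgG, above Camk2g at 6.15 ± 0.780 and 5.25 ± 0.415. Among the NFAT genes, Nfatc3 had 5.15 ± 0.397 CPM per kb under anti-PD-1 and 3.04 ± 0.583 under anti-IgG, and Nfatc1 had 4.35 ± 0.330 and 4.28 ± 0.795. Nfatc2 and Nfatc4 were lowest, at 1.60 ± 0.128 and 1.52 ± 0.338 CPM per kb under anti-PD-1 and at 1.50 ± 0.262 and 1.49 ± 0.347 under anti-IgG. The order of the groups differed in 2 places: Ppp3cb stood above Ppp3ca and Nfatc3 above Nfatc1 under anti-PD-1, and the other way round under anti-IgG. The values of neighbours in this order overlapped between Camk2g and Nfatc3 and between Nfatc2 and Nfatc4 under anti-PD-1. With anti-IgG they overlapped between Ppp3ca and Ppp3cb, Ppp3cb and Camk2d, Camk2g and Nfatc1, Nfatc1 and Nfatc3, and Nfatc2 and Nfatc4. The deposited FPKM gave the same order in both groups. The order rests on the length used: per kb of coding sequence and 3' UTR of the longest GENCODE transcript, Camk2d came after Rcan1, at 42.1 ± 5.27 CPM per kb under anti-PD-1 and 31.8 ± 6.81 under anti-IgG. On that scale Ppp3ca, at 30.0 ± 5.16 CPM per kb, stood above Ppp3r1, at 25.8 ± 4.82, under anti-IgG.

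The calcineurin subunits differed among themselves. Ppp3ca encodes the catalytic Aα subunit and Ppp3cb the catalytic Aβ subunit, whose loss in mice is known to reduce the hypertrophic response. Ppp3ca had 121, 125 and 114 CPM in libraries 1 to 3 of the anti-PD-1 group, against 120.4, 142 and 101 CPM in those of the anti-IgG group. The anti-PD-1 values lay inside the anti-IgG range, and the log2 fold change was -0.02 (SE 0.19, 95% interval -0.42 to 0.39, edgeR adjusted p = 0.961), or 0.01 with RLE scaling. Ppp3cb (chromosome 14, 20499364 to 20546573 on the minus strand in mm10) had 149, 111 and 111 CPM under anti-PD-1 and 106, 69.7 and 72.7 CPM under anti-IgG. Library 1 was the highest of its group on both sides, and the lowest anti-PD-1 value lay just above the highest anti-IgG value. The log2 fold change of Ppp3cb was 0.58 (SE 0.22, 95% interval 0.10 to 1.05), which missed the threshold (edgeR unadjusted p = 0.0211, adjusted p = 0.0775). It was past the threshold with DESeq2 (adjusted p = 0.0484), with no count filter (edgeR adjusted p = 0.0399) and without anti-IgG library 1 (edgeR adjusted p = 0.0201). In 16 of 20 alternatives Ppp3cb stayed uncalled, among them upper quartile scaling (edgeR adjusted p = 0.119).

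Ppp3r1, the B1 subunit that binds calcium and is shared by the catalytic subunits in the heart, lies on chromosome 11 (17159263 to 17200375 on the plus strand in mm10). It had 103, 96.3 and 94.1 CPM under anti-PD-1 and 81.1, 60.1 and 59.0 CPM under anti-IgG. The 3 anti-PD-1 libraries were close together and all above the highest anti-IgG library, which again was library 1. The log2 fold change was 0.55 (SE 0.18, 95% interval 0.15 to 0.95, edgeR unadjusted p = 0.0116, adjusted p = 0.0531), just beyond the threshold. Some changes of the method moved it across: DESeq2 gave an adjusted p of 0.0293, RLE scaling 0.0491 with edgeR, and limma-voom 0.0497. Without anti-IgG library 1 the edgeR adjusted p was 0.0172. In 11 of 20 alternatives Ppp3r1 stayed uncalled, among them upper quartile scaling (edgeR adjusted p = 0.0857). With 1 library left out the edgeR adjusted p reached up to 0.207. Ppp3r1 shares 462 exonic bases with Wdr92 on the same strand. That neighbour held 1245 reads over the 6 libraries and Ppp3r1 held 9662.

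Within a library the ratio of Ppp3cb to Ppp3ca, per kb of gene length, was 1.39, 1.01 and 1.11 under anti-PD-1 and 0.997, 0.555 and 0.818 under anti-IgG. The groups did not overlap (exact 2-sided permutation p = 0.1, the smallest that 3 against 3 libraries allow, and 0.167 adjusted over 5 ratios), so the test could not pass. The ratio of the B subunit Ppp3r1 to the sum of Ppp3ca and Ppp3cb was 1.10, 1.19 and 1.21 under anti-PD-1 and 1.04, 0.839 and 0.997 under anti-IgG. It too was higher in every anti-PD-1 library, with the same exact permutation p of 0.1. The sum leaves out Ppp3cc, a further catalytic subunit gene outside the 10. Ppp3cc had 30.5, 34.1 and 30.0 CPM under anti-PD-1 and 26.8, 17.4 and 26.6 CPM under anti-IgG. With Ppp3cc in the sum the ratio would be lower in every library, and it was not computed.

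Nfatc3 was the NFAT gene that rose. It encodes a transcription factor whose loss in mice is known to weaken calcineurin-driven hypertrophy, and it lies on chromosome 8 (106058840 to 106130537 on the plus strand in mm10). Nfatc3 had 58.9, 65.6 and 56.7 CPM under anti-PD-1 and 43.0, 29.5 and 34.6 CPM under anti-IgG, or 60.4 ± 4.66 against 35.7 ± 6.84 CPM. The lowest anti-PD-1 library lay well above the highest anti-IgG library. The log2 fold change was 0.76 (SE 0.18, 95% interval 0.35 to 1.16, edgeR adjusted p = 0.0185), and DESeq2 gave an adjusted p of 0.00354. The call depended on single libraries: the edgeR adjusted p was 0.0558 with anti-PD-1 library 1 left out, 0.0994 with anti-IgG library 2 left out and 0.0557 with anti-IgG library 3 left out. Nfatc3 shares 219 exonic bases with Esrp2 on the opposite strand. The sources used here do not say whether counting used strand. Esrp2 held 56 reads in all 6 libraries and Nfatc3 5645.

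The other NFAT genes gave values close to each other in both groups. Nfatc1, which forms the heart valves from the endocardium in mouse embryos, had 30.3, 35.0 and 31.7 CPM under anti-PD-1 and 30.9, 38.1 and 26.4 CPM under anti-IgG, and its log2 fold change was 0.02 (SE 0.19). Nfatc2, known best from T cells, had 18.05, 15.4 and 17.3 CPM under anti-PD-1 and 12.8, 16.8 and 18.1 CPM under anti-IgG (log2 fold change 0.09, SE 0.20). Nfatc4, whose activated form causes hypertrophy in transgenic mice, was the scarcest by counts. It had 10.6, 6.70 and 9.18 CPM under anti-PD-1 and 6.35, 10.1 and 9.56 CPM under anti-IgG, with a log2 fold change of 0.03 (SE 0.26). None of these 3 passed (edgeR adjusted p = 0.942, 0.777 and 0.954 in the same order), and their 95% intervals reached from -0.38 to 0.43, from -0.35 to 0.53 and from -0.55 to 0.60. Their sign is not fixed, since upper quartile scaling put Nfatc1 at -0.07, Nfatc2 at -0.00 and Nfatc4 at -0.06.

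The ratio of Nfatc3 to Nfatc1 per kb of gene length was 1.23, 1.19 and 1.13 under anti-PD-1 and 0.883, 0.490 and 0.830 under anti-IgG. The groups did not overlap (exact 2-sided permutation p = 0.1, or 0.167 adjusted over the 5 ratios). Per kb of coding sequence and 3' UTR the ratio was 1.53, 1.47 and 1.40 under anti-PD-1 and 1.09, 0.606 and 1.03 under anti-IgG. Which of the pair is the more abundant thus rests on the length used in anti-IgG libraries 1 and 3. By group mean the order of the pair was the same with either length. T cell markers were scarce. The 6 marker genes summed to 2.69 to 3.39 CPM under anti-PD-1 and 3.12 to 4.98 CPM under anti-IgG. Of the 3 that were tested 1, Cd2, fell, with 1, 2 and 3 reads under anti-PD-1 and 13, 14 and 13 reads under anti-IgG. Cd8a did not pass (edgeR adjusted p = 0.216), with 19, 22 and 17 reads under anti-PD-1 and 9, 10 and 12 under anti-IgG. Their part in the NFAT levels was not tested.

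Rcan1 binds calcineurin and inhibits it, and its internal start site is a textbook NFAT target that gives a short isoform, so the letters upstream of its starts are shown. The 250 bases before each of 2 RefSeq starts (GRCm38.p6, chromosome 16, minus strand) are printed 5′ to 3′, with capitals marking the NFAT core GGAAA on either strand (TTTCC on the printed strand is a match on the other one).
Rcan1 internal start (chr16:92400079-92400328): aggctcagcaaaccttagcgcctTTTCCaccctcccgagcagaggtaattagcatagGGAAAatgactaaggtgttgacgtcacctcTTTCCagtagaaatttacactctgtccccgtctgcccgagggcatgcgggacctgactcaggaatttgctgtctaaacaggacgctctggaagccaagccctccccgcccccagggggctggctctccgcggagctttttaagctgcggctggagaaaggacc
Rcan1 upstream start (chr16:92466170-92466419): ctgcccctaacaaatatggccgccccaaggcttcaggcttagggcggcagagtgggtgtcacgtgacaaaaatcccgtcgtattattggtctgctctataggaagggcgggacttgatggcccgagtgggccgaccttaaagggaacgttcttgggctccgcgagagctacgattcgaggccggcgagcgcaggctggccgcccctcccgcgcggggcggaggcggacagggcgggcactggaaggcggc

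The internal window held 3 NFAT cores, at 227, 193 and 163 bases before the start, and 1 cAMP response element (TGACGTCA, palindromic) between the last of these and the one before it. The upstream window held 0 NFAT cores and 1 E-box (CACGTG, palindromic). No match overlapped another. Of 32851 mouse promoter windows of this length, 55.6% held at least 1 NFAT core and 6.39% at least 3, while 1.55% held the cAMP response element and 6.02% the E-box. RefSeq windows were matched for 7 of the 10 genes, in 10 windows, of which 7 held an NFAT core. Ppp3ca and Camk2g were not matched, and windows on chromosome 18, where Nfatc1 lies, were left out for the 10 genes. Ppp3r1 held 0 cores and Nfatc3 1 and 0 in its 2 windows, while Ppp3cb and Nfatc4 held 3 each. The motifs were chosen with these letters in view, a match is not a binding site, and the gene-level counts do not separate the 2 starts of Rcan1.

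Rcan1 had 752, 104 and 636 CPM in anti-PD-1 libraries 1 to 3 and 165, 379 and 592 CPM in anti-IgG libraries 1 to 3. These values come from 15079, 1940 and 13247 reads under anti-PD-1 and 3215, 6773 and 11830 reads under anti-IgG, so counting error is small beside the differences. Both groups held a low library, number 2 under anti-PD-1 and number 1 under anti-IgG, and the highest and the lowest of the 6 values both belonged to anti-PD-1. The log2 fold change was 0.39 with an SE of 0.74 and a 95% interval of -1.35 to 2.14 (edgeR adjusted p = 0.739). Leaving out 1 library moved it to -0.03 (anti-PD-1 library 1 left out), 0.89 (anti-PD-1 library 2) and 0.90 (anti-IgG library 3). None of these passed. Its spread within groups was larger than that of 99.1% of all tested genes and of 99.5% of the 403 genes at a similar level (mean log2 CPM within 1 of its own). The other 9 genes stood at percentiles 11.3 (Camk2g) to 59.1 (Nfatc4) of within-group spread.

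The genes whose log2 CPM followed Rcan1 most closely over the 6 libraries, among 8955 candidates, were Thumpd3, Slc15a3 and Mfsd5. Thumpd3, which encodes a tRNA methyltransferase, had a Pearson r of 0.99 with Rcan1, the peptide and histidine transporter gene Slc15a3 0.99, and the transporter gene Mfsd5 0.98. Slc15a3 had 13.4, 4.07 and 10.3 CPM under anti-PD-1 and 5.22, 8.95 and 9.86 CPM under anti-IgG, the same rank order as Rcan1 in all 6 libraries. These are the most alike of many candidates over 6 points that share library and depth, and are given as a description.

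Rcan2, a related calcineurin inhibitor that is not among the 10, rose. It had 483, 607 and 447 CPM under anti-PD-1 and 257, 204 and 287 CPM under anti-IgG, a log2 fold change of 1.04 (standard error 0.22, edgeR adjusted p = 0.0111). Every anti-PD-1 library lay above every anti-IgG library, and the rise passed in each setting tried other than leaving out anti-IgG library 2 (edgeR adjusted p = 0.0607). The ratio of Rcan1 to Rcan2 per kb was 2.21, 0.243 and 2.02 under anti-PD-1 and 0.907, 2.63 and 2.93 under anti-IgG. The groups overlapped (exact 2-sided permutation p = 0.5).

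**Figure D2:**
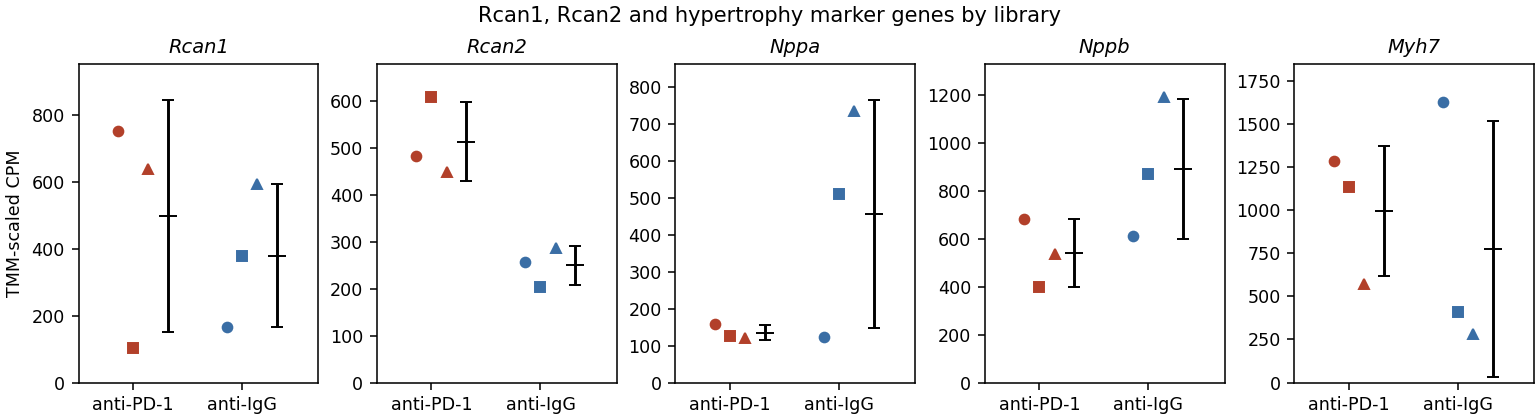
TMM-scaled CPM (vertical axis, each panel from 0) of Rcan1, Rcan2, Nppa, Nppb and Myh7 in the anti-PD-1 libraries (red) and the anti-IgG libraries (blue), with circles, squares and triangles for libraries 1, 2 and 3 and black bars for the mean and SD (n = 3). Rcan2 is at 447 to 607 CPM under anti-PD-1 and 204 to 287 CPM under anti-IgG, and in the other 4 genes the groups overlap.

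Camk2d encodes CaMKIIδ, the main CaMKII of heart muscle, and Camk2g the less abundant CaMKIIγ. Camk2d had 245, 203 and 195 CPM under anti-PD-1 and 199, 157 and 130.0 CPM under anti-IgG. The highest anti-IgG library lay between the lowest and the middle anti-PD-1 library, and the log2 fold change of 0.40 (SE 0.21, 95% interval -0.05 to 0.86) did not pass (edgeR adjusted p = 0.182). Camk2g had 34.7, 44.6 and 38.8 CPM under anti-PD-1 and 31.9, 32.3 and 36.7 CPM under anti-IgG. Its groups overlapped as well, with a log2 fold change of 0.23 (SE 0.17, 95% interval -0.15 to 0.61, edgeR adjusted p = 0.359). The ratio of Camk2d to Camk2g per kb was 2.01, 1.29 and 1.43 under anti-PD-1 and 1.78, 1.38 and 1.01 under anti-IgG (exact 2-sided permutation p = 0.5).

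Log2 fold changes in this comparison rose with gene length: the rank correlation was 0.49 across the 14807 tested genes and 0.14 across the 10. Several of the 10 are long. Camk2d, at 22493 bp, was longer than 99.6% of tested genes, and Nfatc3, at 11726 bp, longer than 94.4%, whereas Ppp3r1 (3228 bp) and Rcan1 (3085 bp) were longer than 36.6% and 34.4%. When each library's trend on gene length was taken out, Nfatc3 stood at 0.36 (edgeR adjusted p = 0.189), Ppp3cb at 0.28 (0.375) and Camk2d at -0.10 (0.759), and Nfatc3 was no longer called. Ppp3r1 instead stood at 0.68 and passed (edgeR adjusted p = 0.0441). With this trend removed 1 of the 10 was thus higher, beside 5.17% of all tested genes, and the median over the 10 was -0.02, beside 0.01 over all tested genes.

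Taking out the trend on coding and 3' UTR length left Ppp3r1 called and not Nfatc3. Ppp3r1 stood at 0.77 (edgeR adjusted p = 0.0402) and was again the 1 gene of the 10 that passed, beside 2.90% of all tested genes called higher, while Nfatc3 stood at 0.22 (edgeR adjusted p = 0.447) and Ppp3cb at 0.35 (0.290). Camk2d was at 0.04, Ppp3ca at -0.29, Nfatc1 at -0.34 and Nfatc2 at -0.54, and none of them passed. Rcan1, at 0.58, kept its wide interval. What lies behind the length trend was not tested.

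**Figure D3:**
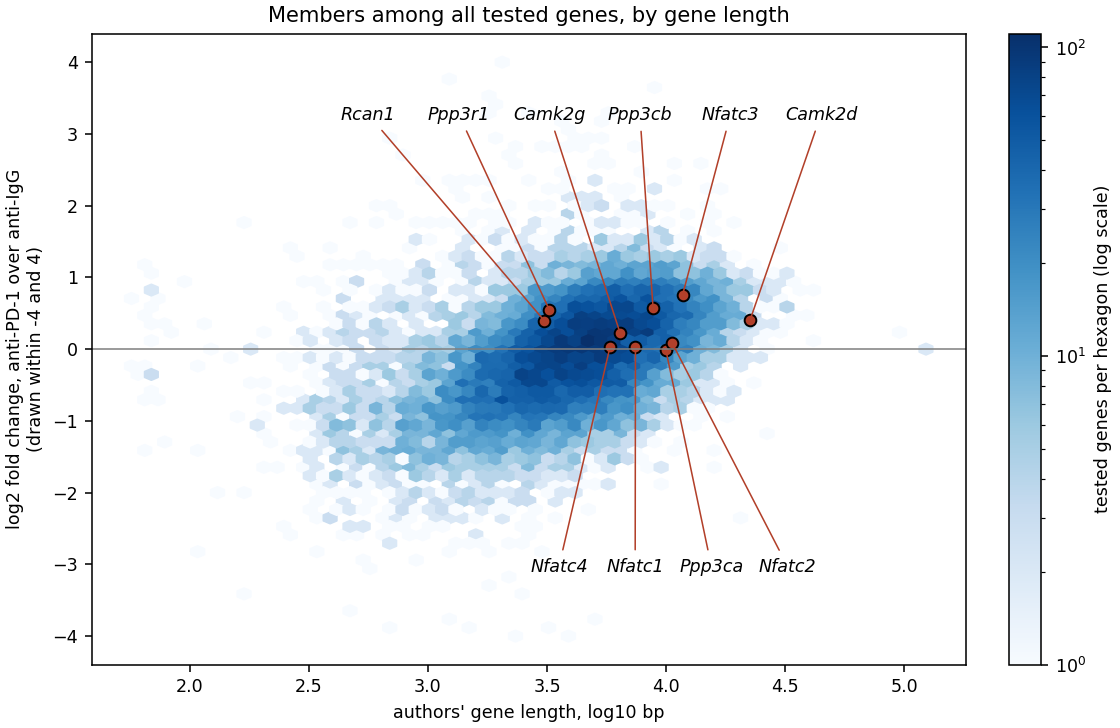
Log2 fold change (anti-PD-1 over anti-IgG, vertical axis) against the authors' gene length in bp on a log10 axis, with hexagons shaded by the number of tested genes and the 10 genes as red points. Longer genes lie higher (rank correlation 0.49 over 14807 genes), with Ppp3r1 at 3228 bp and a log2 fold change of 0.55 and Camk2d at 22493 bp and 0.40.

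**Figure D4:**
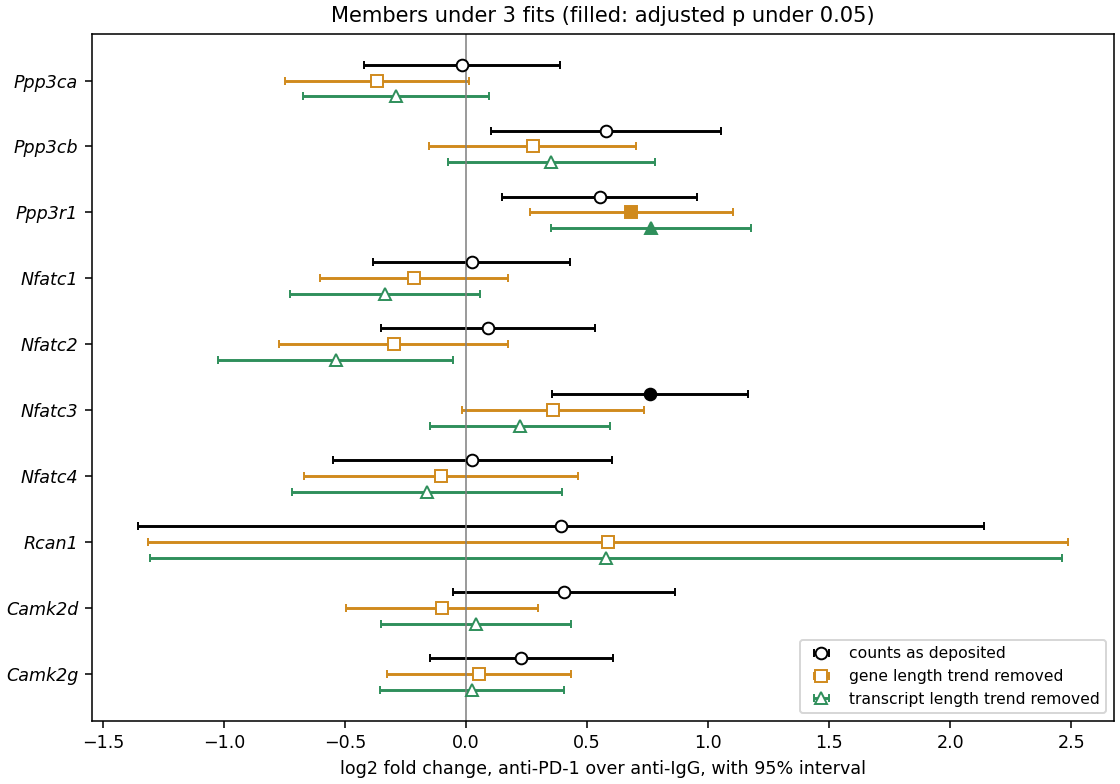
Log2 fold change (anti-PD-1 over anti-IgG, horizontal axis) of the 10 genes with its 95% interval from counts as deposited (black), with the gene length trend removed (orange) and with the transcript length trend removed (green). Filled symbols passed an adjusted p of 0.05: Nfatc3 at 0.76 from counts as deposited, and Ppp3r1 at 0.68 and 0.77 with the length trends removed.

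Other genes of the pathway were counted in 7 lists, which together held 68 genes, 65 of them tested. Of these, 8 rose and 1 fell, beside 10.3% and 10.8% of all tested genes, and their median log2 fold change was 0.25. The split was 6 higher and 3 lower with upper quartile scaling, where 36.8% of all changed genes were higher. With the gene length trend removed it was 5 and 3, beside 5.17% of all tested genes called higher. With the transcript length trend removed it was 2 and 2, beside 2.90% called higher. Of all changed genes in these 2 settings 50.2% and 52.7% were higher. With the gene length trend removed the median was 0.10. The shares of all tested genes given above, by edgeR, at an unadjusted p, by DESeq2 and by limma-voom, stand beside the counts of each list below. A bulk library cannot tell fewer cells of a type from less RNA per cell, which holds for each gene here. Of the 6 cardiomyocyte markers, Ryr2 rose and Tnnt2, Tnni3 and Myl2 fell, and their summed level was 16388 to 28886 CPM under anti-PD-1 and 25210 to 33250 CPM under anti-IgG. Of 5 endothelial markers Egfl7 fell, and they summed to 1114 to 1385 CPM under anti-PD-1 and 1312 to 1429 CPM under anti-IgG. The 3 endocardial markers, of which Npr3 rose, summed to 31.6 to 55.5 CPM under anti-PD-1 and 19.8 to 37.8 CPM under anti-IgG. The 4 fibroblast markers summed to 1618 to 2943 CPM under anti-PD-1 and 1400 to 2158 CPM under anti-IgG. Of 5 myeloid markers Adgre1 rose (log2 fold change 0.97), while Cd68 and Itgam stood at -0.77 and -0.88 and did not pass (edgeR adjusted p = 0.116 and 0.101). The 5 summed to 107 to 123 CPM under anti-PD-1 and 81.2 to 128 CPM under anti-IgG. The 5 smooth muscle and pericyte markers summed to 1890 to 2243 CPM under anti-PD-1 and 1692 to 2021 CPM under anti-IgG. The part of cell content in the results on the 10 genes and on the pathway was not tested.

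Around calcineurin itself, 2 of 14 tested subunits and regulators rose and 1 fell, beside 10.3% and 10.8% of all tested genes. At an unadjusted edgeR p under 0.05 the counts were 4 higher and 4 lower, beside 17.9% and 18.9%. DESeq2 gave 2 and 2, beside 13.0% and 12.4%, and limma-voom 2 and 1, beside 9.99% and 9.95%. Rcan2 is described above. Akap6, a scaffold of the nuclear envelope that holds calcineurin in cardiomyocytes, had 256, 235 and 185 CPM under anti-PD-1 and 146, 99.5 and 100.1 CPM under anti-IgG (log2 fold change 0.97, standard error 0.22, edgeR adjusted p = 0.0144). Cib1, which anchors calcineurin at the sarcolemma in mice, had 4.14, 6.22 and 6.29 CPM under anti-PD-1 and 9.53, 15.0 and 14.5 CPM under anti-IgG (log2 fold change -1.23, standard error 0.26, edgeR adjusted p = 0.0124). Neither gene overlapped between the groups. Both calls were lost with the transcript length trend removed, where Akap6 stood at -0.035 and Cib1 at -0.42. With 1 library left out, the edgeR adjusted p of Akap6 was 0.0553 (anti-PD-1 library 1), 0.0777 (anti-IgG library 2) and 0.0544 (anti-IgG library 3), and that of Cib1 0.0513 (anti-PD-1 library 1) and 0.0631 (anti-IgG library 2). With the gene length trend removed Akap6 stood at 0.52 and missed the threshold (edgeR adjusted p = 0.101). Akap5, another gene of this list, had a log2 fold change of -0.97 without overlap and missed the threshold (edgeR adjusted p = 0.0604). It was called lower with DESeq2 (adjusted p = 0.0373) and with upper quartile scaling (edgeR adjusted p = 0.0489). With the gene and transcript length trends removed Akap5 stood at -1.17 and -1.49 (edgeR adjusted p = 0.0433 and 0.0296).

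Among the kinases that phosphorylate NFAT and the remaining NFAT factor, 2 of 9 tested genes rose and 0 fell, with a median of 0.47. Gsk3b, whose kinase drives NFAT out of the nucleus, had 146, 122 and 126 CPM under anti-PD-1 and 72.7, 71.2 and 65.7 CPM under anti-IgG, well apart. Its log2 fold change was 0.91 (standard error 0.17, edgeR adjusted p = 0.00824), and 0.56 (adjusted p = 0.0490) with the gene length trend removed. With the transcript length trend removed it was 0.48 and missed the threshold (edgeR adjusted p = 0.0869). Dyrk2, which encodes another NFAT kinase, stood at 49.1 ± 8.44 CPM under anti-PD-1 and 31.4 ± 2.29 CPM under anti-IgG (log2 fold change 0.65, edgeR adjusted p = 0.0305). The Dyrk2 call was lost with upper quartile scaling (edgeR adjusted p = 0.0506), with either length trend removed and without any 1 of 4 libraries, namely anti-PD-1 1 and 3 and anti-IgG 2 and 3. At an unadjusted edgeR p under 0.05, 6 of the 9 were higher and 0 lower, beside 17.9% of all tested genes higher. DESeq2 called 4 higher and 0 lower, beside 13.0% higher, and limma-voom 2 and 0, beside 9.99% higher. Without overlap between the groups 6 were higher, beside 20.2%, and 0 lower.

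Upstream, 0 of 10 tested genes of calcium entry passed with edgeR in either direction, against 1 at an unadjusted p under 0.05, 1 with DESeq2 and 0 with limma-voom. The lowest p was that of Cacna1c, the pore of the cardiac L-type calcium channel, which had 165, 219 and 134 CPM under anti-PD-1 and 113, 122 and 105 CPM under anti-IgG. Its groups did not overlap, and its log2 fold change of 0.61 (SE 0.21) missed the threshold (edgeR adjusted p = 0.0600) and passed with DESeq2 (adjusted p = 0.0235). Its direction depended on length: Cacna1c stood at 0.08 with the gene length trend removed and, once the transcript length trend was taken out, at -0.39 (edgeR adjusted p = 0.820 and 0.278).

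On the CaMKII side, beside 10.3% risen and 10.8% fallen of all tested genes, 1 of 9 tested genes of other CaM kinases and CaMKII inhibitors rose and 0 fell. This was Camkk2, a kinase upstream of CaMKI, CaMKIV and AMPK, at 22.3 ± 1.55 CPM under anti-PD-1 and 14.6 ± 1.62 CPM under anti-IgG (log2 fold change 0.61, edgeR adjusted p = 0.0393). In the class IIa HDAC, MEF2 and CAMTA branch 1 of 13 rose and 0 fell: Hdac4, a deacetylase that CaMKII phosphorylates, at 30.9 ± 7.03 CPM under anti-PD-1 and 18.3 ± 1.58 CPM under anti-IgG (log2 fold change 0.76, edgeR adjusted p = 0.0274). The Camkk2 call was lost in 11 of 20 alternatives, among them the omission of any library but anti-PD-1 2 (edgeR adjusted p = 0.0592 to 0.131). With the gene and transcript length trends removed Camkk2 stood at 0.21 and 0.24 (edgeR adjusted p = 0.510 and 0.465). The Hdac4 call was lost in 9 of 20, among them the omission of anti-PD-1 1 or 2 or anti-IgG 2 or 3 (edgeR adjusted p = 0.0736 to 0.109). With the gene and transcript length trends removed Hdac4 stood at 0.28 and 0.06 (edgeR adjusted p = 0.359 and 0.884). At an unadjusted edgeR p under 0.05 the CaM kinase list held 1 gene higher and 1 lower. The HDAC list held 5 higher and 1 lower, beside 17.9% and 18.9% of all tested genes. DESeq2 called 1 higher in the CaM kinase list and 2 in the HDAC list, beside 13.0%. With limma-voom 1 was higher in each, beside 9.99%. Both methods called 0 lower in either list, beside 12.4% and 9.95%. In the HDAC list Hdac7, another class IIa deacetylase, was called lower with upper quartile scaling (-0.56, edgeR adjusted p = 0.0367) and with the gene and transcript length trends removed (-0.67 and -0.64, adjusted p = 0.0299 and 0.0394).

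The CaMKII substrates of calcium handling had the highest median of the 7 lists, 0.70, and, beside 10.3% of all tested genes, 2 of 6 rose. One of them was Ryr2, the calcium release channel of the sarcoplasmic reticulum, which had 1311, 1617 and 1148 CPM under anti-PD-1 and 625, 445 and 482 CPM under anti-IgG. Its groups did not overlap, and its log2 fold change was 1.39 (standard error 0.24, edgeR adjusted p = 0.00644). The rise of Ryr2 passed with each library left out in turn. With the transcript length trend removed Ryr2 stood at 0.62 and missed the threshold (edgeR adjusted p = 0.103). The list holds long genes, such as Ryr2 (28790 bp) and Cacna1c (21191 bp), and its median with a length trend removed is not given here.

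**Figure D5:**
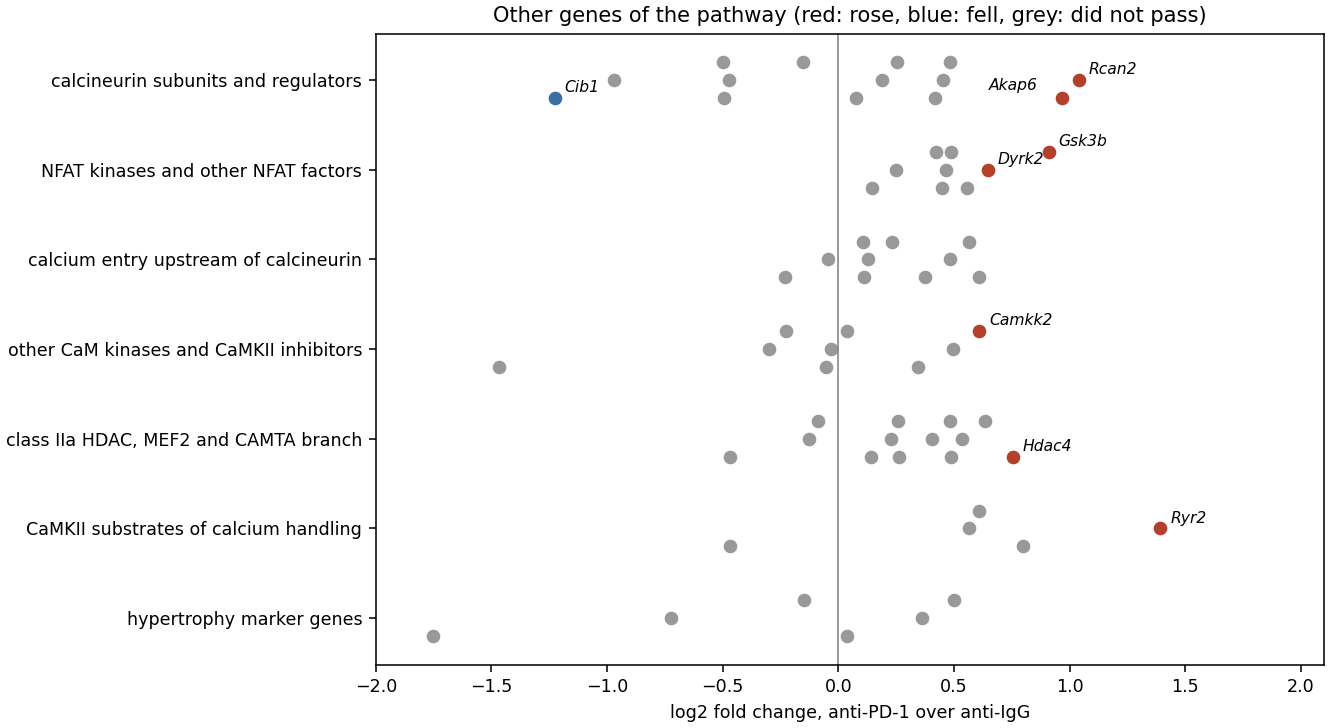
Log2 fold change (anti-PD-1 over anti-IgG, horizontal axis) of tested genes in the 7 pathway lists (rows; 1 gene is left out), red where it rose, blue where it fell and grey where it did not pass. The genes drawn in red or blue are named, and Ryr2 at 1.39 and Cib1 at -1.23 are the outermost of them.

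Of the 6 hypertrophy marker genes, none passed with edgeR, while 2 were lower at an unadjusted p under 0.05, DESeq2 called 2 lower and limma-voom 0. Nppa, which encodes atrial natriuretic peptide, had 158, 127 and 121 CPM under anti-PD-1 and 123, 512 and 735 CPM under anti-IgG. Anti-IgG library 1 lay among the anti-PD-1 values and the other two stood above them, and the log2 fold change of -1.75 (SE 0.55) missed the threshold (edgeR adjusted p = 0.0573). Nppa passed with DESeq2 (adjusted p = 0.0476) and, without anti-IgG library 1, with edgeR (adjusted p = 0.00177). With the gene and transcript length trends removed it stood at -0.93 and -0.80 and did not pass (edgeR adjusted p = 0.270 and 0.356). Nppb, the gene of brain natriuretic peptide, had 684, 398 and 539 CPM under anti-PD-1 and 611, 873 and 1192 CPM under anti-IgG (log2 fold change -0.72, edgeR adjusted p = 0.0924). Myh7, the slow myosin heavy chain, had 1282, 1135 and 568 CPM under anti-PD-1 and 1628, 410 and 284 CPM under anti-IgG (log2 fold change 0.36, edgeR adjusted p = 0.727). Without anti-IgG library 1 Myh7 was called higher, at 1.52 (edgeR adjusted p = 0.0161), and Nppb lower, at -0.93 (0.0351). Acta1, the skeletal alpha-actin gene of the list, was called higher with the gene length trend removed (1.10, edgeR adjusted p = 0.0410). The anti-IgG libraries differed from each other by several fold in Nppa and Myh7, and library 1, the highest of its group in Ppp3cb, Ppp3r1, Nfatc3 and Camk2d, was the lowest in Nppa and the highest in Myh7.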

How the data were processed

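mRNA of 6 left ventricle libraries was sequenced; per the labels' protocols, libraries were made with a NEBNext Ultra kit. The authors deposited raw read counts per gene; featureCounts and mm10 are named in the submitters' processing notes, while for aligner and strand setting the sources used here give nothing. The authors also deposited FPKM, whose scaling between libraries is not stated; they served only as an alternative. Counts were filtered with filterByExpr, scaled by TMM and tested with edgeR 4.0.16 in R 4.3.3 (quasi-likelihood F test, robust=TRUE, 2-sided, Benjamini-Hochberg over 14807 genes, threshold 0.05), after a test on simulated data. The SE is the log2 fold change divided by the square root of F. Alternatives used DESeq2 1.42.0 and limma 3.58.1 among others. The length trends were splines of 5 degrees of freedom per library, entered as offsets; the transcript length trend was added after seeing the data and used lengths known for 13050 of 14807 genes. Libraries of a group differed beyond sampling noise (chi-square per degree of freedom 46.0 to 73.5).

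The genes named are the 10, every gene of a pathway list past the threshold or, where none passed, the one with the smallest p, and the 3 genes most correlated with Rcan1 (mean log2 CPM 3 or more). The result of 1 gene that this rule names is not reported here. Nppb, Myh7, Acta1, Hdac7, Ppp3cc, Akap5 and the marker genes Cd8a, Adgre1, Cd68, Itgam, Myl4 and Myl7 were named after their values were seen. The genes and lists were chosen with earlier results of these data known. Column groups were taken from the labels.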

Additional observations from a re-analysis of the deposited data

How the results depend on the processing

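Of the 20 alternatives run for each named gene, 358 results of single genes stayed on their side of the threshold or uncalled, 18 became past the threshold, 43 lost it and 1 called gene turned round, Akap6, at -0.035 with the transcript length trend removed. For the 10 genes themselves 182 stayed, 13 became past the threshold and 5 lost it. The sign differed in 27 results, 25 of them of the 10 genes (Ppp3ca, Nfatc1, Nfatc2, Nfatc4, Rcan1 and Camk2d) and the others of Akap6 and Cacna1c, and apart from Akap6 these were uncalled on both sides. The 3118 changed genes became 1526 with the gene length trend removed and 816 with the transcript length trend removed, and leaving out 1 library gave 532 (without anti-IgG library 2) to 3646. The 1 of 10 called became 2 with RLE scaling, no count filter, limma-voom, genes of an FPKM of at least 1, or mitochondrial and haemoglobin genes left out, and 3 with DESeq2. Leaving out 1 library gave 0 (without anti-PD-1 library 1, anti-IgG library 2 or anti-IgG library 3) to 3 (without anti-IgG library 1). Over all tested genes these fits called 532 to 3646. The 9 called pathway genes became 15 with no count filter, 17 with DESeq2 and 4 with the transcript length trend removed, and 3 to 16 with 1 library left out. DESeq2 called 13.0% of all tested genes higher and 12.4% lower, limma-voom 9.99% and 9.95%, and the 4 stand beside the 816 changed genes of that setting. For RLE scaling, no count filter, the FPKM filter and the omission of mitochondrial and haemoglobin genes such shares are not given here. Counts in those settings are therefore not read as a result about the 10 genes or the pathway.

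Same-numbered libraries had correlations of 0.12, -0.14 and 0.21, and differently numbered ones -0.34 to 0.20. So few pairs cannot show whether the numbers pair the libraries. With the replicate block 3367 genes, 3 of the 10 (with Ppp3cb and Ppp3r1 at edgeR adjusted p = 0.0373 and 0.0452) and 10 pathway genes were called.

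On levels per kb, the FPKM moved 2 of 20 group values by more than their SD, and coding and 3' UTR length 18 of 20. With 3 libraries a group the 95% interval of Rcan1 was -1.35 to 2.14 and does not exclude a change of either sign within it, and those of Nfatc1, Nfatc2, Nfatc4, Ppp3ca, Camk2d and Camk2g held 0.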
